A study of Mus musculus with 25 samples.

Results

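RNA of whole aortas from EKO mice fed WD or NLD for 22 weeks was compared to describe what the longer feeding did to aortic gene expression in this model of atherosclerosis. The comparison was chosen with earlier results of these data known. Its libraries were taken by their labels and are 6 of the 25 in the series. They are 3 from EKO mice on WD and 3 from EKO mice on NLD. EKO mice lack Apoe on a C57/BL6J background, WD is the high-fat Western-type diet, and NLD is the normal laboratory chow. The labels give no mouse with an intact Apoe gene, so both groups share that deletion and neither is a wild type. The methods of the study give male mice, feeding from 8 weeks of age and 3 animals per group. By their labels the EKO libraries were analysed anew from earlier samples. The description runs across 12849 of 23284 listed genes, those averaging 1 FPKM or more across the series. FPKM stands for fragments per kilobase of transcript, scaled to the number of mapped fragments of a library, the unit in which the authors deposited their values. Where the response is set against other parts of the study, these are EKO mice at 6 weeks and, at 22 weeks, DKO mice, which lack both Apoe and Apoa1, with 3 libraries per diet in each.

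Mice without apolipoprotein E clear remnant lipoproteins poorly and develop plaques in the aorta, faster on a fatty diet. In a plaque, macrophages take up lipoproteins, break down their cholesteryl esters in the lysosome, and store or export the sterol, which turns them into foam cells. The wall around them is made of contractile smooth muscle cells, endothelium and an outer layer of fibroblasts and fat, with collagen and elastic fibres between the cells.

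Replicate 2 on WD is a partial library. Of the 8693 genes above 5 FPKM on average in the 2 other WD libraries, 68.5% are listed at 0 in it, and, with chromosome names sorted as text, its listing breaks off on chromosome 15 after Tmem184b and before Mir1943. Exceptions are 8 tested genes above 0 that are placed after this point and 70 tested genes at 0 placed before it. Its zeros were taken as missing, which leaves 3 WD values for 4022 of the tested genes and 2 WD values for 8827. Where 2 WD values are given below, they belong to replicates 1 and 3. For those genes, a fit without WD replicate 1 or 3 keeps a single WD value. A call lost in such a fit can stem from the smaller group, which cannot be told apart from the weight of that library. For genes it does list, the partial library differed from the mean of the other WD libraries by a median of -0.02 on the log2 scale. Low values of 1 gene in different libraries clustered at whole-number ratios, which places the depth of the WD libraries at 1.13, 1.103 and 1.34 times that of NLD replicate 1, and that of NLD replicates 2 and 3 at 0.901 and 0.665 times. Of the low values used, 6.9% (WD replicate 3) to 14.8% (NLD replicate 2) lay at the most frequent ratio, so these depths are rough. Reads per gene could not be derived, because gene lengths are not in the table, so no counting interval is given. Xist, the transcript of the inactive X chromosome, was 28.4 and 0.0337 FPKM on WD and 19.6, 17.6 and 0.0196 FPKM on NLD, although the methods give male mice. Ddx3y, a gene of the Y chromosome, was 0 and 13.3 FPKM on WD and 0.0138, 0.102 and 13.1 FPKM on NLD. In the series, 10 libraries had Xist of at least 5 FPKM with Ddx3y under 1 FPKM. Another 14 had Xist under 5 FPKM with Ddx3y over 5 FPKM. With Xist class as a term and the partial library left out, 1289 genes were called higher and 1150 lower, against 1321 and 1201 without that library alone. The 5 complete libraries summed to 448239 to 556933 FPKM, against 360421 to 415555 FPKM in the other 19 libraries of the series, and the housekeeping gene Ppia was likewise higher, at 1029.8 to 1348 FPKM against 449.9 to 842 FPKM. Nothing in the labels or methods assigns libraries to flowcells, so a batch and a group cannot be told apart.

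Acta2 and Myh11, actin and myosin of contractile smooth muscle, checked the tissue. Acta2 was 1892 and 1799 FPKM on WD and 2222, 3009 and 1932 FPKM on NLD. Myh11 was 263 and 248.9 FPKM on WD and 315, 479 and 415 FPKM on NLD. Both were abundant in every complete library. Their WD values lay below all NLD values, and neither was called. Apoe read 20.7 and 15.1 FPKM on WD and 14.6, 8.25 and 12.3 FPKM on NLD, so a transcript is still counted over the disrupted gene.

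At 22 weeks, 1331 genes were called higher on WD and 1175 lower, which are 10.4% and 9.14% of the genes tested. A call here is a Benjamini-Hochberg adjusted p under 0.05 in limma, a linear model with moderated variances, fitted on log2(FPKM + 1) over all 25 libraries. Every fold change below is a difference on that scale, which understates the change of genes of low level. At least a 2-fold change was reached by 543 of the higher and 262 of the lower genes. The libraries of the groups did not overlap for 1311 of the higher and 1154 of the lower genes, and they also did not overlap for 46.7% of all genes tested. The median over all genes was -0.06. The lower calls leaned on single libraries: without WD replicate 1, 766 genes were called higher and 155 lower, and without NLD replicate 3 the numbers were 1005 and 527. Of 30 genes with a log2 change of at least 5 in size, 27 were miRNA, snoRNA or other small RNA models whose values jumped between libraries, and these are not described further. A 28th, the beta-globin Hbb-b2, is listed at 0 in WD replicate 1 beside 3362 FPKM in WD replicate 3 and 4172, 9301 and 4038 FPKM on NLD, and shares reads with near-identical globin genes.

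**Figure D1:**
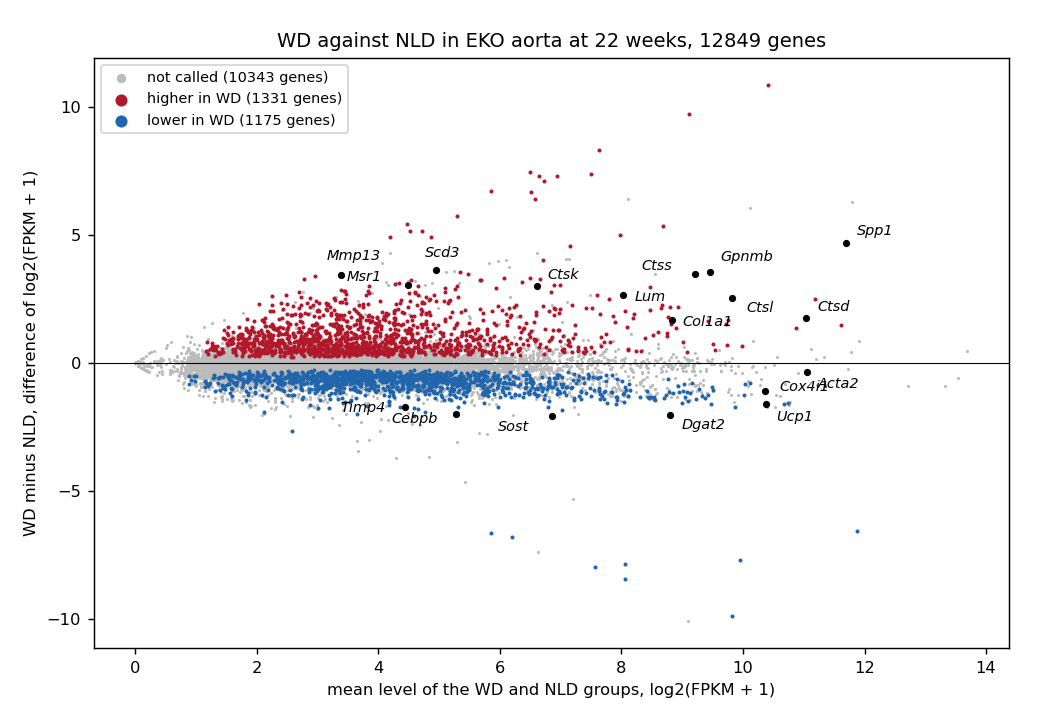
Mean level of the groups (x axis, log2(FPKM + 1)) against WD minus NLD (y axis, difference of log2(FPKM + 1)) for 12849 genes in EKO aorta at 22 weeks, with called genes in colour and black points for genes named in the text. The 1331 genes called higher reach larger changes than the 1175 called lower, and the points beyond 5 in size are nearly all small RNA models.

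The named genes with the largest rise include Spp1, Gpnmb and the desaturase Scd3, which is given with lipid synthesis. Spp1, which encodes osteopontin, a secreted phosphoprotein of plaque macrophages and bone, was 6459 and 6317 FPKM on WD and 364, 221 and 179 FPKM on NLD. This is a log2 fold change of 4.71 (SE 1.29, adjusted p = 0.0159). Gpnmb, a transmembrane glycoprotein of lysosome-rich macrophages, was 982 and 1608 FPKM on WD and 103, 89.3 and 125 FPKM on NLD (3.57, SE 0.68, adjusted p = 0.00123). The genes of this paragraph were picked among those without overlap between diets, so their separation follows from the choice. Itgax, the integrin chain CD11c, was 63.8 and 98.3 FPKM on WD and 7.45, 4.95 and 6.45 FPKM on NLD (3.48, SE 0.48, adjusted p = 7.16e-05). Saa3, an acute-phase apolipoprotein made by macrophages, was 79.9 and 67.6 FPKM on WD and 9.85, 4.08 and 3.45 FPKM on NLD (3.57, SE 0.88, adjusted p = 0.00904). Thbs1, thrombospondin 1, was 176 and 149.6 FPKM on WD and 22.9, 13.5 and 11.1 FPKM on NLD, a change of 3.34. For Itgax, Saa3 and Thbs1 the lowest WD value was several times the highest NLD value. Gp49a, a receptor of myeloid cells, has all 6 values, with 137, 102 and 123 FPKM on WD and 12.3, 7.54 and 14.2 FPKM on NLD (3.33, SE 0.42, adjusted p = 2.16e-05). Prg4, lubricin, rose as well but spread widely on WD, at 169, 66.5 and 45.7 FPKM against 11.6, 5.26 and 7.09 FPKM on NLD. The call of Spp1 was lost without WD replicate 1, WD replicate 3 or NLD replicate 3 (adjusted p = 0.112, 0.0585 and 0.0518) while its fold change stayed between 4.49 and 4.72, and that of Saa3 was lost without WD replicate 1 (adjusted p = 0.0859).

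**Figure D2:**
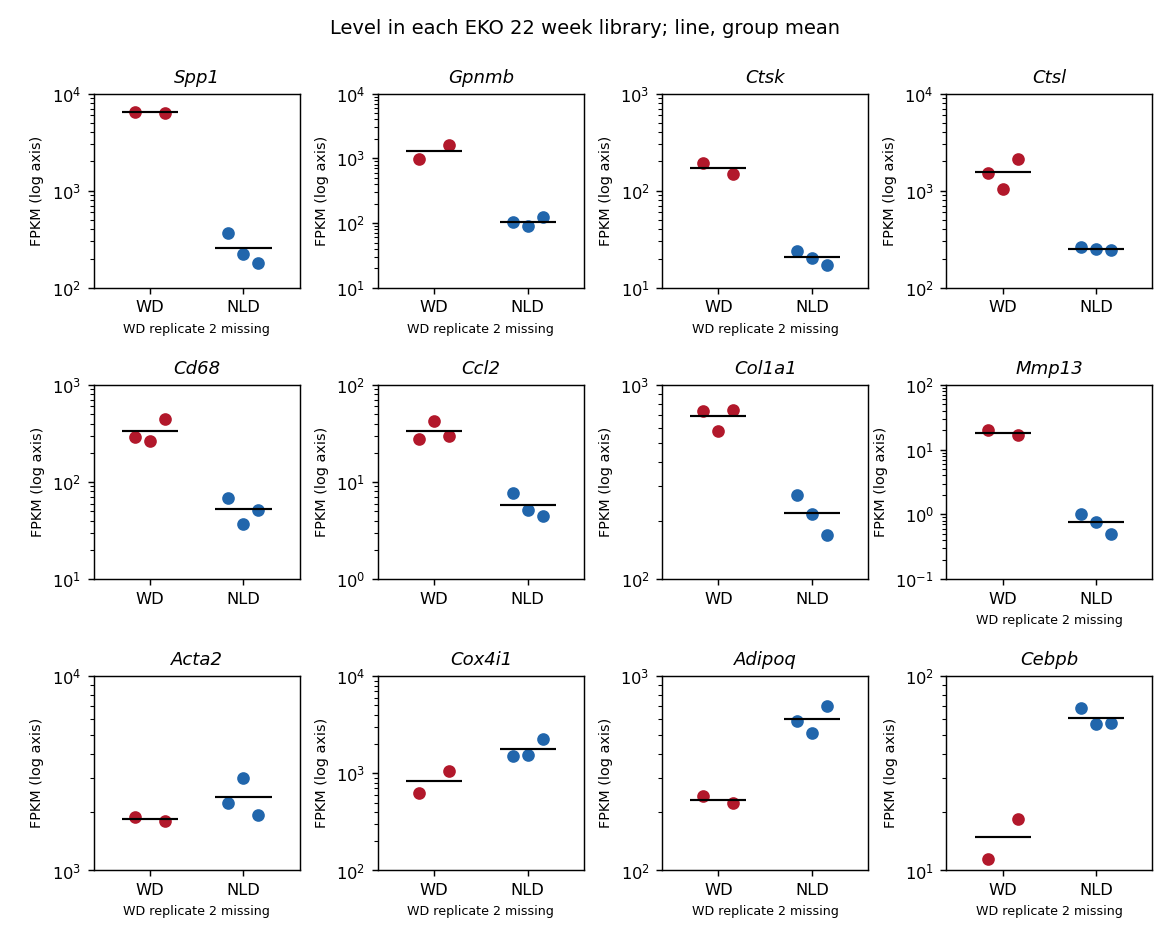
FPKM (log axis) of 12 genes in each EKO library at 22 weeks, WD at the left and NLD at the right of each panel, with a line at the group mean. The WD points of Spp1, Gpnmb, Ctsk, Ctsl, Cd68, Ccl2, Col1a1 and Mmp13 lie above all NLD points, and those of Acta2, Cox4i1, Adipoq and Cebpb lie below them.

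Macrophage markers rose together. Of 21 general markers, all tested, 20 were called higher and none lower, with a median log2 fold change of 1.96, and their summed level was 5607 and 7347 FPKM on WD against 1524, 969.8 and 969.4 FPKM on NLD. In bulk tissue, more cells of a type and more RNA per cell cannot be told apart, here and in the lists that follow. Unless marked, list members named here and below are anchors or among those with the smallest p in their list. For the latter, separation between the diets largely follows from the choice. Cd68, a glycoprotein of macrophage lysosomes, was 294, 267 and 443 FPKM on WD and 68.9, 37.4 and 51.7 FPKM on NLD (2.65, SE 0.40, adjusted p = 0.000132). Mpeg1, a pore-forming protein of phagocytes, was 219 and 234 FPKM on WD and 32.5, 20.5 and 26.8 FPKM on NLD (3.07, SE 0.45, adjusted p = 0.000137). For both, the lowest WD library was several times the highest NLD library. Emr1, the gene of the surface marker F4/80, was 42.1 and 41.3 FPKM on WD and 19.4, 7.24 and 6.90 FPKM on NLD, and Cd84, a homophilic receptor of leukocytes, was 40.8, 29.4 and 45.2 FPKM on WD and 6.63, 3.67 and 4.38 FPKM on NLD. Csf1r, the receptor for the growth factor that keeps macrophages alive, changed least among the anchors, with 48.6 and 60.9 FPKM on WD and 37.8, 17.0 and 23.1 FPKM on NLD (1.11, SE 0.29, adjusted p = 0.0117). Its call was lost without WD replicate 3 or NLD replicate 2 (adjusted p = 0.0803 and 0.0503). NLD replicate 1 had the highest NLD value of Cd68, Emr1, Cd84 and Csf1r.

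Markers of the foamy, TREM2-positive type moved with them, and those of resident adventitial macrophages mostly did not. Of 22 foamy markers 17 were called higher and none lower, at a median of 1.97, although Spp1, Gpnmb and Itgax above are counted among them. Trem2, a lipid-sensing receptor, was 174 and 246 FPKM on WD and 28.1, 19.7 and 25.3 FPKM on NLD (3.05, SE 0.61, adjusted p = 0.00208). Lgals3, galectin-3, was 729, 483 and 684 FPKM on WD and 88.3, 68.4 and 79.1 FPKM on NLD (2.98, SE 0.47, adjusted p = 0.000188). Among the members not called, some are also expressed by fat cells. Lpl, lipoprotein lipase, was 444 and 437 FPKM on WD and 449.7, 449 and 659 FPKM on NLD, and Cd36, a fatty acid transporter, was 246 and 254 FPKM on WD and 234, 284 and 473 FPKM on NLD. Fabp4, a fatty acid carrier of fat cells and macrophages named here after its values were seen, was 3927 and 5235 FPKM on WD and 7294, 6636 and 12605 FPKM on NLD, and its change of -0.90 missed the threshold (adjusted p = 0.138). Of the 13 resident markers, 2 were called higher, at a list median of 0.04, and 4 were called without NLD replicate 1 or after rescaling by median ratios. These were Folr2, a folate receptor, with 62.2 and 56.8 FPKM on WD and 45.4, 20.8 and 23.9 FPKM on NLD, and Mrc1, the mannose receptor, with 19.7 and 17.7 FPKM on WD and 16.4, 6.39 and 6.82 FPKM on NLD. Neither was called without WD replicate 1 (adjusted p = 0.139 for Folr2 and 0.173 for Mrc1), NLD replicate 2 or NLD replicate 3, nor Mrc1 without WD replicate 3 (0.0554). Lyve1, a hyaluronan receptor and the anchor of that list, was 11.2 and 7.32 FPKM on WD and 11.7, 7.43 and 17.3 FPKM on NLD, with full overlap.

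Receptors and enzymes by which macrophages sense and kill followed. All 16 tested members of the list of Fc receptors and their signalling proteins were called higher, at a median of 1.70. Fcgr3, a low-affinity receptor for IgG, was 98.6, 88.6 and 125 FPKM on WD and 30.8, 18.3 and 24.4 FPKM on NLD (2.06, SE 0.29, adjusted p = 7.4e-05). Of 16 Toll-like receptors and adaptors 12 rose and none fell, at a median of 1.08. Tlr13, which detects bacterial ribosomal RNA, was 16.9 and 14.1 FPKM on WD and 2.59, 1.23 and 2.16 FPKM on NLD (2.49, SE 0.29, adjusted p = 1.79e-05), and Tlr4, the receptor of bacterial lipopolysaccharide, was 9.73 and 7.38 FPKM on WD and 3.58, 3.06 and 3.50 FPKM on NLD. In neither case did the diets overlap. Among NADPH oxidases and nitric oxide synthases, 6 of 10 rose and 5 listed members were too low to test. Cybb, the catalytic chain of the phagocyte oxidase, was 37.1 and 34.1 FPKM on WD and 10.7, 4.67 and 6.98 FPKM on NLD (2.18, SE 0.34, adjusted p = 0.00019). Nox4, the oxidase of the vessel wall itself, was 31.3 and 16.7 FPKM on WD and 24.9, 27.3 and 28.7 FPKM on NLD, and the groups overlapped.

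To show the letters upstream of a macrophage gene in this response, the promoter of Itgam is printed, 250 bases before to 50 after the start in RefSeq on GRCm38.p6, chr7:128062390-128062689 on the plus strand. Capitals mark matches to GAGGAAG, the core sequence of the macrophage factor PU.1, on either strand, and they begin at -84 and 32 from the start. Promoters were found for 16 of the 21 macrophage markers and 9966 of the 12849 tested genes, and the core occurs in 4 of the 16 and in 1605 (16.1%) of all. A match is a run of letters and not a bound site.
Itgam: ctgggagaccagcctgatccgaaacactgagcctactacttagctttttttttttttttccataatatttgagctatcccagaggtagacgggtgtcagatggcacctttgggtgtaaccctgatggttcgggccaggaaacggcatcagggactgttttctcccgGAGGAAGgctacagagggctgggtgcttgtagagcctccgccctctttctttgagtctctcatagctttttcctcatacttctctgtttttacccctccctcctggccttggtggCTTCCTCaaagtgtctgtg
Itgam, the integrin chain CD11b, was 25.6 and 23.7 FPKM on WD and 12.1, 3.60 and 7.44 FPKM on NLD (1.68, SE 0.44, adjusted p = 0.0129) and was named for its promoter after its values were seen. Its call was lost without WD replicate 1 or NLD replicate 2 (adjusted p = 0.107 and 0.0554). Of the macrophage markers with the core, 4 of 4 rose, and of those without it 11 of 12.

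Proteases had the highest median of the 4 lysosomal lists. Of 16 tested cathepsins and legumain, 13 were called higher and 1 lower, with a median of 1.23, and their summed level was 9049.7 and 12104 FPKM on WD against 3779, 3349 and 3716 FPKM on NLD. Ctsk, cathepsin K, which cuts collagen and elastin, was 194 and 150.3 FPKM on WD and 23.9, 20.4 and 17.4 FPKM on NLD (3.01, SE 0.36, adjusted p = 2.1e-05). Ctss, cathepsin S, an elastase that also trims the invariant chain of class II molecules, was 1024 and 1158 FPKM on WD and 130.3, 80.9 and 85.4 FPKM on NLD (3.48, SE 0.57, adjusted p = 0.000356). Each WD value of both genes was over 5 times every NLD value. Ctsl, cathepsin L, was 1508, 1036 and 2133 FPKM on WD and 262, 251 and 243 FPKM on NLD (2.56, SE 0.32, adjusted p = 2.5e-05). Ctsb, cathepsin B, was 1228, 1062 and 1645 FPKM on WD and 426, 326 and 470.2 FPKM on NLD, and Ctsd, the aspartic protease cathepsin D, was 2623 and 3904 FPKM on WD and 1005, 802 and 1049 FPKM on NLD (1.76, SE 0.20, adjusted p = 1.21e-05). Ctsf, cathepsin F, named after its value was seen, was the member called lower, at 19.7 and 22.0 FPKM on WD and 34.96, 34.5 and 38.2 FPKM on NLD (-0.76, SE 0.10, adjusted p = 5.66e-05).

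Hydrolases of sugars and lipids, the lysosomal membrane and its proton pump had lower medians. Of 38 hydrolases 23 were higher and 2 lower (median 0.64), of 29 membrane proteins 15 were higher and 3 lower (0.48), and of 20 subunits and accessory proteins of the proton pump 11 were higher and none lower (0.42). Gla, alpha-galactosidase A, was 20.3 and 20.3 FPKM on WD and 3.79, 3.44 and 3.07 FPKM on NLD (2.27, SE 0.26, adjusted p = 1.41e-05). Gusb, beta-glucuronidase, was 155 and 189 FPKM on WD and 40.0, 29.5 and 37.8 FPKM on NLD (2.24, SE 0.27, adjusted p = 1.97e-05). In both, WD replicates lay close together and far above NLD. Lipa, the acid lipase that frees cholesterol from its esters, was 127 and 154 FPKM on WD and 40.9, 35.96 and 60.2 FPKM on NLD (1.63, SE 0.20, adjusted p = 2.7e-05), and Npc1, which carries that cholesterol out of the lysosome, was 22.0 and 25.5 FPKM on WD and 10.2, 10.9 and 14.5 FPKM on NLD (0.96, SE 0.14, adjusted p = 0.000118). Atp6v1a, a catalytic subunit of the pump, was 64.7 and 67.3 FPKM on WD and 29.0, 32.7 and 35.9 FPKM on NLD (1.00, SE 0.12, adjusted p = 2.09e-05), while Atp6v0d2, a subunit typical of osteoclasts and macrophages, moved most, at 81.4 and 102 FPKM on WD against 7.80, 7.85 and 10.7 FPKM on NLD (3.25, SE 0.58, adjusted p = 0.000708). Lamp1, a structural protein of the membrane, was 339 and 410.1 FPKM on WD and 281, 247 and 272 FPKM on NLD, a change of 0.48 whose call was lost without WD replicate 3 (adjusted p = 0.134). Without that library 6 pump members and 11 membrane proteins were called higher.

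Members that fell were few and, like Ctsf, are named after their values were seen. Smpd1, acid sphingomyelinase, was 24.1 and 33.8 FPKM on WD and 43.8, 37.6 and 53.6 FPKM on NLD, and Hyal1, a hyaluronidase, was 14.7 and 17.9 FPKM on WD and 26.0, 26.7 and 30.8 FPKM on NLD. Of the membrane proteins, Abcb9, a peptide transporter, was 3.09 and 5.62 FPKM on WD and 11.97, 10.2 and 9.31 FPKM on NLD (-1.14, SE 0.19, adjusted p = 0.000426). Abca2, a lipid transporter, fell by 0.71 and Laptm4b, a small transmembrane protein, fell by 0.48 on the log2 scale. The calls of Smpd1, Hyal1, Abca2 and Laptm4b were lost without WD replicate 1 (adjusted p = 0.267, 0.117, 0.35 and 0.1), and that of Smpd1 also without NLD replicate 3 (0.059) and of Laptm4b without NLD replicate 1 (0.0537). Of the MiT/TFE factors, which switch on lysosomal genes, Mitf was called higher with 5.33 and 3.88 FPKM on WD against 2.27, 2.08 and 2.69 FPKM on NLD (0.74, SE 0.15, adjusted p = 0.00209), but not without WD replicate 1 (adjusted p = 0.0774). Tfeb, the best known of them, was 12.05 and 14.1 FPKM on WD and 19.7, 16.6 and 14.1 FPKM on NLD, and its change of -0.33 was not called.

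The E-box TCACGTG, which these factors bind, was looked for in the same promoter window because the lysosomal lists moved together. It occurs on either strand in 687 (6.89%) of the 9966 promoters of tested genes. Among promoters of the lists it occurs in 3 of 12 cathepsins and legumain, 7 (24.1%) of 29 hydrolases, 8 (33.3%) of 24 membrane proteins and 4 (28.6%) of 14 pump members. Promoters of 3 genes with the box and a called rise are printed from RefSeq on GRCm38.p6, with the match in capitals: Ctsd on chr7:142387778-142388077 (minus strand, matches from -245 and -99), Gla on chrX:134600956-134601255 (minus strand, -228 and -195) and Atp6v1a on chr16:44139210-44139509 (minus strand, -132). Palindromic TCACGTGA matches both strands and was counted as 1 match.
Ctsd: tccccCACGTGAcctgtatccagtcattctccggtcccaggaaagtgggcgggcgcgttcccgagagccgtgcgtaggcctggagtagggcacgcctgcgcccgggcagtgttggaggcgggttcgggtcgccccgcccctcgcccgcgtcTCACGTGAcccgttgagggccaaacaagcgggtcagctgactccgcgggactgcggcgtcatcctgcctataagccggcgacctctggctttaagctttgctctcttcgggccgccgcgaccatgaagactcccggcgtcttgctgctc
Gla: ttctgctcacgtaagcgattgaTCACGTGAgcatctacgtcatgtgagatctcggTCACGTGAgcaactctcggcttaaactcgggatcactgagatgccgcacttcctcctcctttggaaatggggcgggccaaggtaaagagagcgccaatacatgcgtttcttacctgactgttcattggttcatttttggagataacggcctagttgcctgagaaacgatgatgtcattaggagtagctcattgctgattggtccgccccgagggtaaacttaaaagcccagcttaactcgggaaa
Atp6v1a: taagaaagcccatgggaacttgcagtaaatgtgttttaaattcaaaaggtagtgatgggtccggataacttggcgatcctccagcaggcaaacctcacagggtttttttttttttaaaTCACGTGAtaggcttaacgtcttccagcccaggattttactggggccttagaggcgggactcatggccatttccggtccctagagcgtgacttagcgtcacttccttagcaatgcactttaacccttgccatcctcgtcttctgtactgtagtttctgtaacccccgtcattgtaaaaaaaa
Genes with and without the box were among those that rose. Of hydrolases with it 3 of 7 rose, and of those without it 13 of 22. Of membrane proteins with it 3 of 8 rose, against 10 of 16 without, of pump members 2 of 4 rose with it, against 4 of 10 without, and of cathepsins 3 of 3 rose with it, against 7 of 9 without.

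Genes that store and export sterol rose. Of 16 tested members of the list of sterol efflux, esterification and LXR targets, 9 were called higher and none lower, at a median of 1.18. Nceh1, which hydrolyses cholesteryl esters outside the lysosome, was 23.4 and 22.1 FPKM on WD and 3.74, 3.95 and 3.77 FPKM on NLD (2.30, SE 0.26, adjusted p = 9.43e-06). Soat1, which makes those esters, was 21.7, 14.4 and 21.9 FPKM on WD and 4.63, 4.34 and 3.52 FPKM on NLD (1.96, SE 0.24, adjusted p = 1.79e-05). Both genes of the ester cycle were higher in every WD library than in any NLD library, while the diets did not overlap for 46.7% of all genes tested. Of the exporters, Abcg1 was 55.0 and 60.5 FPKM on WD and 15.03, 7.66 and 10.4 FPKM on NLD (2.33, SE 0.34, adjusted p = 9.96e-05), and Abca1 was 59.1 and 52.9 FPKM on WD and 22.4, 16.3 and 19.04 FPKM on NLD (1.502, SE 0.27, adjusted p = 0.00078). Of 13 scavenger receptors 4 rose and 1 fell, beside 10.4% called higher and 9.14% called lower over all genes tested. Msr1, the class A receptor for modified lipoproteins, was 36.9 and 41.4 FPKM on WD and 3.98, 3.71 and 3.77 FPKM on NLD (3.06, SE 0.40, adjusted p = 4.27e-05), and Cxcl16, a chemokine that also binds oxidised lipoprotein, was 55.5, 58.6 and 66.7 FPKM on WD and 13.3, 10.2 and 7.46 FPKM on NLD. These too did not overlap. Only 2 scavenger receptors were called higher without WD replicate 1.

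Genes that make sterol leaned the other way, and few were called. None of 24 tested members of the cholesterol synthesis list rose and 3 fell, at a median of -0.54 (limma, with 0 higher and 7 lower at an unadjusted p under 0.05). The share that fell was near the 9.14% called lower over all genes tested. At the unadjusted threshold, 4476 of all 12849 genes passed in either direction, so neither count sets this list apart. Srebf2, the factor that switches the pathway on, was 9.74 and 11.3 FPKM on WD and 17.97, 18.5 and 15.9 FPKM on NLD (-0.68, SE 0.16, adjusted p = 0.00696). The other called members were Acat2, a thiolase, with 25.9 and 46.4 FPKM on WD and 91.9, 68.3 and 109.6 FPKM on NLD, and Tm7sf2, a sterol reductase, with 2.53 and 4.55 FPKM on WD and 5.97, 7.33 and 6.33 FPKM on NLD. No member was called without WD replicate 1, where the list median was -0.14, and without WD replicate 3 there were 6 lower. Acat2 was also not called without NLD replicate 1 or 3 (adjusted p = 0.0683 and 0.11). Among the desaturases that make monounsaturated fat, Scd3 was 34.4 and 78.4 FPKM on WD and 3.05, 2.25 and 4.71 FPKM on NLD (3.65, SE 0.50, adjusted p = 7.04e-05), and Scd4 was 10.9 and 24.2 FPKM on WD and 1.26, 1.09 and 1.92 FPKM on NLD (2.85, SE 0.40, adjusted p = 7.7e-05). Scd1, their close relative, was far more abundant at 1860.0 and 4414 FPKM on WD and 2287, 2676 and 6070.1 FPKM on NLD, with overlap. Reads shared among such paralogs make their split uncertain. Fasn, fatty acid synthase, ranged from 210.5 to 978 FPKM on WD and from 509 to 2337 FPKM on NLD.

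Chemokines, cytokines and adhesion molecules rose in part. Of 14 tested CC chemokines 7 rose and 2 fell, at a median of 1.17. Ccl2, which draws monocytes, was 27.5, 42.6 and 30.1 FPKM on WD and 7.76, 5.10 and 4.47 FPKM on NLD (2.35, SE 0.44, adjusted p = 0.00093). Ccl3 was 8.48, 9.19 and 10.99 FPKM on WD and 1.77, 0.764 and 1.63 FPKM on NLD (2.16, SE 0.34, adjusted p = 0.000188). Ccl4 gave 7.53, 10.2 and 10.3 FPKM on WD and 2.53, 1.54 and 1.14 FPKM on NLD. The members that fell, named after their values were seen, were Ccl24, an attractant of eosinophils, with 0.567 and 0.712 FPKM on WD and 2.23, 1.53 and 1.76 FPKM on NLD, and Ccl27a, with 8.56 and 16.3 FPKM on WD and 15.7, 20.1 and 26.1 FPKM on NLD. Neither of those was called without WD replicate 1 (adjusted p = 0.117 for Ccl24 and 0.595 for Ccl27a), where 5 CC chemokines were called higher, and without NLD replicate 2 there were 4. Ccl27a was also not called without NLD replicate 2 or 3 (adjusted p = 0.0724 and 0.162). Cx3cl1, fractalkine, rose with 28.9 and 36.3 FPKM on WD against 6.85, 9.16 and 6.61 FPKM on NLD, and so did its receptor Cx3cr1, with 4.13 and 6.12 FPKM on WD against 2.87, 1.38 and 1.65 FPKM on NLD. Ccr2, the receptor of Ccl2, was 8.01 and 8.10 FPKM on WD and 8.45, 1.44 and 3.04 FPKM on NLD, where NLD replicate 1 exceeded both WD libraries, and it was not called (adjusted p = 0.0931).

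Of 14 tested cytokines and inflammasome genes 10 rose. Il1rn, the antagonist of the interleukin-1 receptor, moved most of those named, with 25.002 and 22.8 FPKM on WD and 2.90, 2.20 and 2.63 FPKM on NLD (2.80, SE 0.44, adjusted p = 0.000204). Casp1, the protease of the inflammasome, was 12.3 and 13.4 FPKM on WD and 5.55, 4.84 and 5.43 FPKM on NLD (1.14, SE 0.20, adjusted p = 0.000555), and Aim2, a sensor of cytosolic DNA, was 3.23, 3.40 and 4.18 FPKM on WD and 1.61, 1.096 and 0.766 FPKM on NLD (1.11, SE 0.15, adjusted p = 4.19e-05). Of 24 tested complement genes 10 rose and 2 fell, and without WD replicate 1 there were 6 and 1. C3ar1, the receptor of the C3a fragment, was 40.9 and 41.3 FPKM on WD and 7.93, 3.44 and 4.79 FPKM on NLD (2.78, SE 0.40, adjusted p = 9.48e-05), while C1qa, a chain of the C1q recognition protein, was 400.2 and 492 FPKM on WD and 207, 99.0 and 105 FPKM on NLD (1.77, SE 0.37, adjusted p = 0.00254). Of 13 genes of class II presentation 4 rose, or 7 without NLD replicate 1. Cd74, the invariant chain, was 337 and 551 FPKM on WD and 586, 248.7 and 156 FPKM on NLD, and H2-Aa, a class II chain, was 179.7 and 253 FPKM on WD and 235, 101 and 60.5 FPKM on NLD. Both overlapped through NLD replicate 1 and neither was called. Of 17 adhesion genes 9 rose. Vcam1, which holds monocytes on activated endothelium, was 109 and 122 FPKM on WD and 26.4, 22.9 and 25.8 FPKM on NLD (2.16, SE 0.41, adjusted p = 0.00118), and Selp, P-selectin, was 22.2, 28.2 and 28.9 FPKM on WD and 6.36, 5.30 and 8.23 FPKM on NLD (1.85, SE 0.44, adjusted p = 0.00682). Icam1 did not overlap between diets, at 24.2 and 33.1 FPKM on WD and 18.2, 14.5 and 17.6 FPKM on NLD, yet missed the threshold (adjusted p = 0.0658).

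Smaller lists outside these themes held a few called genes, beside 10.4% called higher and 9.14% called lower over all genes tested. Of 16 tested genes of iron and heme handling 4 rose, among them Hmox1, heme oxygenase 1, with 76.1 and 82.4 FPKM on WD and 30.2, 23.7 and 19.3 FPKM on NLD (1.68, SE 0.36, adjusted p = 0.00362). Ftl1, the light chain of the iron store ferritin, was 4473 and 4695 FPKM on WD and 1969.8, 1421 and 1610.0 FPKM on NLD (1.47, SE 0.25, adjusted p = 0.000431). Of 21 genes of prostaglandin and leukotriene synthesis and signalling 6 rose and 1 fell. Hpgds, a prostaglandin D synthase of hematopoietic cells, was 13.7 and 14.3 FPKM on WD and 1.71, 1.92 and 2.40 FPKM on NLD (2.32, SE 0.24, adjusted p = 5.23e-06), and Ptgs2, the inducible cyclooxygenase, was 10.5, 7.28 and 7.2003 FPKM on WD and 1.32, 2.13 and 1.23 FPKM on NLD (1.86, SE 0.36, adjusted p = 0.00138). Both were separated from NLD in all libraries with a value. Of 20 TGF-beta genes 4 rose and 1 fell, with Tgfb1 at 48.6 and 49.1 FPKM on WD and 27.6, 20.6 and 18.1 FPKM on NLD (1.13, SE 0.26, adjusted p = 0.00575; 0.0509 without WD replicate 1, where none of the list was called). Without NLD replicate 2 or NLD replicate 3, 2 of the TGF-beta genes were called higher.

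**Figure D3:**
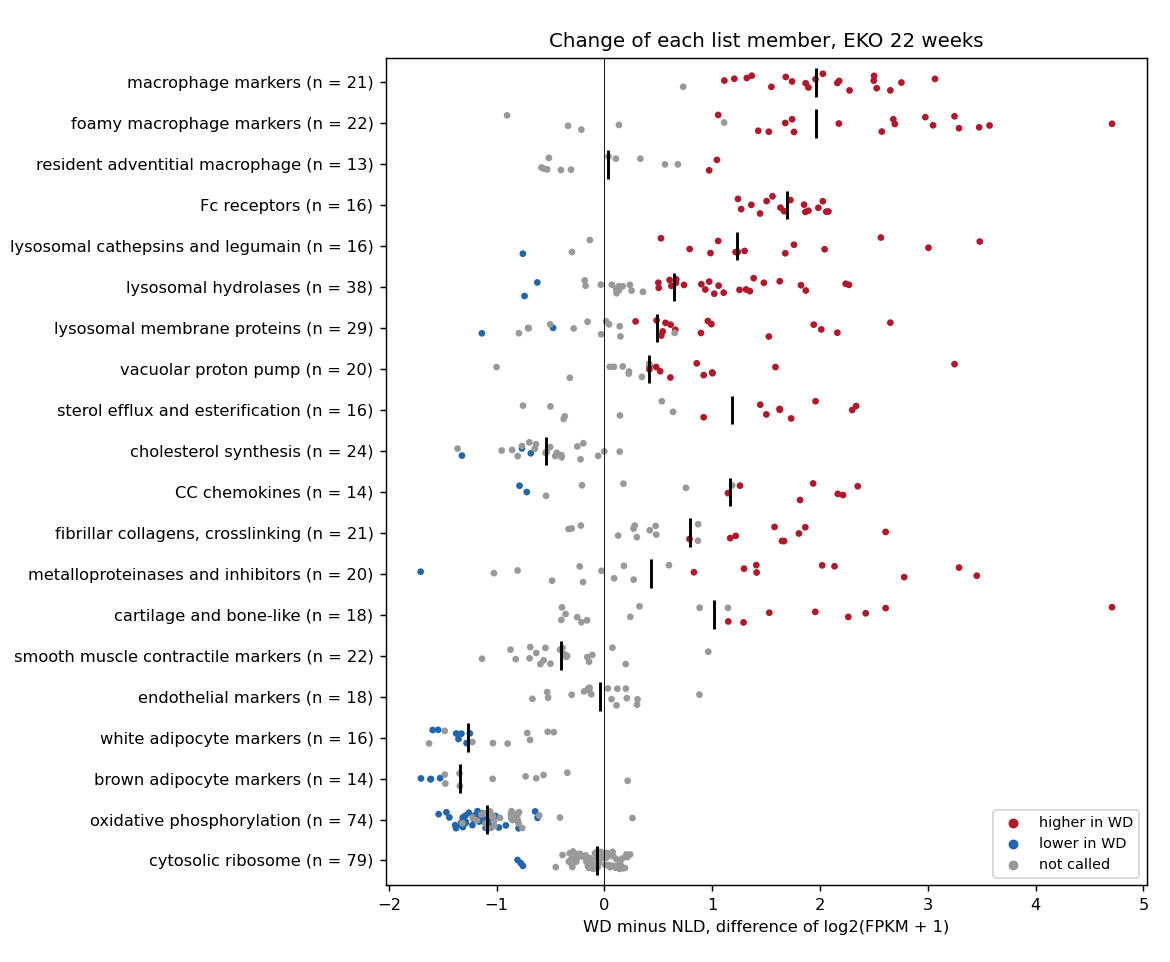
WD minus NLD (x axis, difference of log2(FPKM + 1)) of each tested member of 20 lists in EKO aorta at 22 weeks, with a black bar at the list median and colour for called members. Macrophage, Fc receptor and cathepsin members lie mostly right of 0 in red, oxidative phosphorylation members lie left of 0 with 46 of 74 in blue, and smooth muscle and endothelial members are grey.

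Some genes of matrix fibrils and of the enzymes that cut them rose. Of 21 tested fibrillar collagens and crosslinking enzymes, 9 were higher and none lower, at a median of 0.79. Col1a1, the main chain of type I collagen, was 738, 579.7 and 747 FPKM on WD and 270.1, 217 and 169 FPKM on NLD (1.67, SE 0.36, adjusted p = 0.00315), and Col3a1, of type III collagen, was 771, 588 and 675 FPKM on WD and 235, 196 and 155 FPKM on NLD (1.80, SE 0.32, adjusted p = 0.000646). Loxl2, a crosslinking oxidase, was 36.7, 20.8 and 25.7 FPKM on WD and 10.01, 7.76 and 7.55 FPKM on NLD (1.58, SE 0.24, adjusted p = 0.00016). All WD values of these genes exceeded all NLD values. Lum, a keratan sulfate proteoglycan that orders collagen fibrils, was 540.3, 403 and 404 FPKM on WD and 84.5, 83.7 and 47.9 FPKM on NLD (2.66, SE 0.42, adjusted p = 0.0002). Eln, elastin, was 1103 and 1410.2 FPKM on WD and 445, 423 and 439 FPKM on NLD (1.52, SE 0.49, adjusted p = 0.0377), but its call was lost without any 1 of the 5 complete libraries (adjusted p from 0.0663 to 0.152). Ltbp2, a microfibril-associated protein, was 91.7, 74.7 and 78.0 FPKM on WD and 16.2, 14.3 and 25.5 FPKM on NLD (2.10, SE 0.28, adjusted p = 3.55e-05). Elastic fibre genes were called higher in 4 of 15. Without WD replicate 1, 5 of the fibrillar list and 1 of the elastic fibre list were called, and of the elastic fibre list 2 were called without WD replicate 3, NLD replicate 2 or NLD replicate 3.

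Of 20 tested metalloproteinases and inhibitors 9 rose and 1 fell. Mmp13, a collagenase, was 19.8 and 16.7 FPKM on WD and 1.03, 0.777 and 0.491 FPKM on NLD (3.45, SE 0.29, adjusted p = 8.56e-07). Mmp12, the macrophage elastase, was 158 and 205 FPKM on WD and 16.7, 14.9 and 21.6 FPKM on NLD (3.29, SE 0.66, adjusted p = 0.00208), and Mmp14, a membrane-bound collagenase, was 82.8, 85.6 and 110.5 FPKM on WD and 22.9, 20.2 and 23.0 FPKM on NLD (2.02, SE 0.26, adjusted p = 3.03e-05). The inhibitors divided. Timp1 was 217 and 180.5 FPKM on WD and 36.2, 27.9 and 21.6 FPKM on NLD (2.78, SE 0.49, adjusted p = 0.000624), whereas Timp4 was 8.67 and 9.18 FPKM on WD and 22.7, 29.4 and 45.9 FPKM on NLD (-1.70, SE 0.36, adjusted p = 0.00308). Of 18 tested genes of cartilage and bone 8 rose and none fell, at a median of 1.01, and 10 listed members, Sox9 and Runx2 among them, were below 1 FPKM. Col2a1, the collagen of cartilage, was 6.84 and 7.45 FPKM on WD and 0.122, 1.08 and 0.0184 FPKM on NLD (2.61, SE 0.54, adjusted p = 0.00247), and Acan, aggrecan, was 6.43 and 5.77 FPKM on WD and 1.499, 1.55 and 1.33 FPKM on NLD (1.53, SE 0.32, adjusted p = 0.00262). Ibsp, bone sialoprotein, differed widely between the WD libraries, at 12.4 and 2.04 FPKM against 0.198, 0.402 and 0.396 FPKM on NLD. Without WD replicate 1, Ibsp was not called (adjusted p = 0.437) and 4 of that list were, and without NLD replicate 3 there were 5. Ibsp was also not called without NLD replicate 1 or 3 (adjusted p = 0.0561 and 0.0564). Tnfrsf11b, osteoprotegerin, which blocks osteoclast formation, was 33.6, 20.8 and 26.1 FPKM on WD and 5.67, 7.66 and 5.08 FPKM on NLD.

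Mitochondrial genes were the largest list to fall. Of 74 oxidative phosphorylation genes, 46 were called lower and none higher, at a median of -1.09 (limma; 67 lower and 0 higher at an unadjusted p under 0.05). Ndufa13, a subunit of complex I, was 45.5 and 64.5 FPKM on WD and 121, 107 and 133 FPKM on NLD (-1.13, SE 0.24, adjusted p = 0.00282). Uqcr11, of complex III, was 187, 400.3 and 345 FPKM on WD and 731, 654 and 839.8 FPKM on NLD (-1.32, SE 0.30, adjusted p = 0.00528), and Cox4i1, of complex IV and named after its value was seen, was 633 and 1046 FPKM on WD and 1512, 1559 and 2262 FPKM on NLD (-1.102, SE 0.38, adjusted p = 0.0474). WD replicate 1 was the lowest of all libraries for each. Without it no member of the list was called and the median was -0.73. Without NLD replicate 3, which had the highest summed level, 12 were called, and with the 6 libraries fitted alone 3 were. Summed levels of the list were 12573 and 22645 FPKM on WD against 33478, 32276 and 49479 FPKM on NLD.

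Markers of fat moved with these genes. The summed level of 14 tested markers of brown adipocytes, the mitochondria-rich fat that surrounds the aorta, was 1161 and 3505 FPKM on WD against 4368, 5569.6 and 8078 FPKM on NLD, and that of 16 white adipocyte markers was 2464 and 2196 FPKM on WD against 7752, 4594 and 5976 FPKM on NLD. None of the markers in either list rose, while 4 brown and 7 white markers fell, at medians of -1.34 and -1.26 (limma, 8 and 11 lower at an unadjusted p under 0.05). Ucp1, the uncoupling protein that defines brown fat, was 309.6 and 1169 FPKM on WD and 1317, 1864 and 2551 FPKM on NLD (-1.61, SE 0.56, adjusted p = 0.0488). Cidea, a lipid droplet protein of brown fat, was 190.1 and 574 FPKM on WD and 837, 865 and 1424 FPKM on NLD. Adipoq, the fat hormone adiponectin, was 242 and 222 FPKM on WD and 586, 508 and 703 FPKM on NLD (-1.35, SE 0.45, adjusted p = 0.0432). Both fat hormones and Ucp1 stood lower in every WD library than in any on NLD: Lep, leptin, was 1.49 and 3.68 FPKM on WD and 21.1, 6.35 and 6.22 FPKM on NLD, though just short of the threshold (adjusted p = 0.0508). Without WD replicate 1 the calls of Ucp1, Cidea, Cox4i1 and Adipoq were lost (adjusted p = 0.615, 0.516, 0.427 and 0.184), no brown and 2 white markers were called, and the calls of Cidea, Cox4i1 and Adipoq were also lost without NLD replicate 1, 2 or 3 (adjusted p from 0.052 to 0.154). Adipoq was also not called without WD replicate 3 (adjusted p = 0.135), nor Ucp1 without NLD replicate 2 or 3 (0.0858 and 0.15). Without NLD replicate 3 no brown and 1 white marker were called. Without NLD replicate 2 there was 1 brown marker, and without NLD replicate 1 there was no white marker. Without WD replicate 3 there were 6 brown and 3 white markers. How much attached fat was left on each aorta is not stated, and its part in the lower levels of mitochondrial genes was not tested.

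Fatty acid oxidation and lipid droplets followed the same libraries. Of 26 oxidation genes 5 were lower and 1 higher, at a median of -1.15, and of 19 lipid droplet genes 7 were lower and 1 higher, at a median of -0.97. Pnpla2, the first lipase of stored fat, was 189.9 and 324 FPKM on WD and 752, 491 and 1030.0 FPKM on NLD (-1.54, SE 0.46, adjusted p = 0.0246). Dgat2, which makes triglyceride, was 108 and 257 FPKM on WD and 747, 452 and 936 FPKM on NLD (-2.03, SE 0.47, adjusted p = 0.0059). Without WD replicate 3, 13 oxidation genes were called lower, and without NLD replicate 3, 1 oxidation and no lipid droplet gene was. Without NLD replicate 1 there were 3 and 1. Without WD replicate 1, no gene of the oxidation or lipid droplet lists was called in either direction, and Pnpla2 and Dgat2 missed the threshold (adjusted p = 0.285 and 0.16). Pnpla2 also missed it without NLD replicate 1 or 3 (adjusted p = 0.0535 and 0.0977).

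Among the named genes with the largest fall, few belong to these lists. Sost, sclerostin, a Wnt antagonist of bone and smooth muscle, was 64.2, 24.4 and 47.5 FPKM on WD and 182, 231 and 143 FPKM on NLD (-2.08, SE 0.50, adjusted p = 0.00719). Cebpb, a transcription factor of fat and myeloid cells, was 11.5 and 18.4 FPKM on WD and 68.5, 56.9 and 57.8 FPKM on NLD (-1.99, SE 0.39, adjusted p = 0.00159). Adra1d, an adrenergic receptor that constricts the aorta, was 2.08 and 4.51 FPKM on WD and 13.5, 12.7 and 12.5 FPKM on NLD (-1.75, SE 0.33, adjusted p = 0.0011). These genes too were picked among those without overlap between diets, so their separation follows from the choice. Of 18 clock genes 3 were called lower, and without WD replicate 3 there was 1. Beside these clock calls, 9.14% of all genes tested were called lower. Dbp, the clock gene with the widest swing, was 34.3 and 9.38 FPKM on WD and 23.4, 71.8 and 35.2 FPKM on NLD, with overlap, and the hour of dissection is not stated. Klhdc7a, Tuba8, Mrgprg, Cib2, Nat8l and Fam13a are also among the largest falls, with changes from -2.06 to -1.77, and none of these 6 was called without WD replicate 1 (adjusted p from 0.137 to 0.497). The calls of Tuba8, Nat8l and Fam13a were also lost without NLD replicate 1 or 3, that of Fam13a without WD replicate 3, and that of Mrgprg without WD replicate 3 or NLD replicate 1 or 2, with adjusted p from 0.0548 to 0.186.

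Markers of the wall's own cells were rarely called. None of 22 smooth muscle contractile markers was called in either direction, at a median of -0.40, and 3 were lower at an unadjusted p under 0.05 in limma. At that threshold 4476 of all 12849 genes passed in either direction. Their summed level was 5771 and 5587 FPKM on WD and 7223, 9437 and 6758 FPKM on NLD. Smtn, smoothelin, was 110.5, 99.8 and 127 FPKM on WD and 177, 247 and 179 FPKM on NLD (-0.82, SE 0.39, adjusted p = 0.135), so the diets did not overlap although no call was made. The diets did not overlap for 13 of the 22 markers, beside 46.7% of all genes tested. When the 6 libraries were fitted alone, 3 of the 22 were called lower. Endothelial markers summed to 606.3 and 670.5 FPKM on WD and to 583.3, 542.6 and 706.9 FPKM on NLD, with none of 18 called and 1 higher at an unadjusted p under 0.05. Fibroblast markers split, with Lum higher and 2 others lower of 15. Of 79 cytosolic ribosome genes 3 were called lower, of 26 interferon-stimulated genes 1 was higher, and of 23 proliferation genes 2 were higher. Over all genes tested 10.4% were called higher and 9.14% lower, so these counts set none of the lists apart. Without NLD replicate 1, 6 interferon-stimulated genes were called higher, and no interferon-stimulated or proliferation gene was called without WD replicate 1, WD replicate 3, NLD replicate 2 or NLD replicate 3. Neither lower fibroblast marker was called without WD replicate 1, NLD replicate 1 or NLD replicate 2.

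Some cells can come with the aorta from blood or neighbouring tissue. Lists of T and NK cells (13 tested), neural and Schwann cells (15), skeletal muscle (15), neutrophils (9) and mast cells (6) had no called member in limma, and at an unadjusted p under 0.05 the 0 became 1 higher and 1 lower for neutrophils and 2 lower for mast cells. S100a8, a neutrophil protein, was 35.4 and 16.2 FPKM on WD and 9.51, 8.17 and 326 FPKM on NLD, which sets NLD replicate 3 apart. Without NLD replicate 3, 2 neutrophil markers were called higher, and the list median was 0.73 in place of -0.335. Cd3e, a chain of the T cell receptor complex, was 1.21 and 0.871 FPKM on WD and 6.46, 3.58 and 0.634 FPKM on NLD, and Cd79a, of the B cell receptor, was 1.19 and 1.34 FPKM on WD and 12.1, 5.64 and 2.09 FPKM on NLD. Cd3e, Cd79a and the summed B cell markers of the complete libraries were highest in NLD replicate 1. Of 6 tested B cell markers 1 was called, Cd22, which was higher on WD (1.55, SE 0.46, adjusted p = 0.0246). It was 7.75 and 13.6 FPKM on WD and 4.15, 2.93 and 1.85 FPKM on NLD. No B cell marker was called without WD replicate 1, WD replicate 3 or NLD replicate 3. Th, the enzyme of sympathetic nerves, was 0.363 and 1.44 FPKM on WD and 9.61, 42.3 and 1.01 FPKM on NLD. Summed T and NK markers were 36.2 and 40.6 FPKM on WD and 130.2, 91.1 and 33.7 FPKM on NLD. Neural sums were 111 and 142 FPKM on WD and 207, 395 and 109 FPKM on NLD, and skeletal muscle sums were 126 and 164 FPKM on WD and 308, 337 and 142 FPKM on NLD. These 3 lists were thus highest in NLD replicates 1 and 2. Mast cell sums were 21.2 and 29.4 FPKM on WD and 49.0, 37.96 and 39.3 FPKM on NLD, higher in all NLD libraries. Their part in the calls above was not tested.

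**Figure D4:**
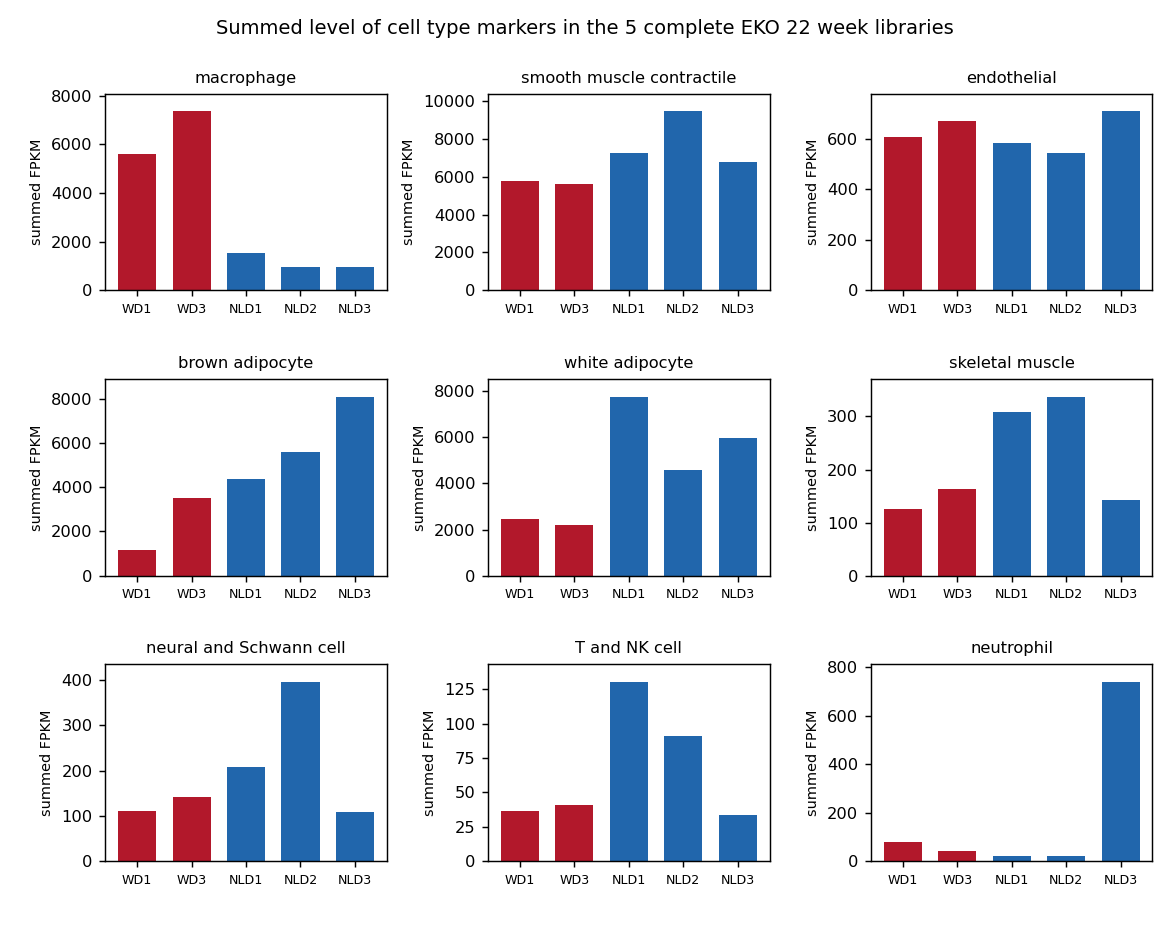
Summed FPKM of the tested markers of 9 cell types in the 5 complete EKO libraries at 22 weeks, WD in red at the left and NLD in blue at the right of each panel. Macrophage sums are 5607 and 7347 FPKM on WD against at most 1524 FPKM on NLD, fat sums are lower on WD, the neutrophil sum is high in NLD replicate 3, and T cell and neural sums are high in NLD replicates 1 and 2.

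At 6 weeks the same contrast in EKO gave 22 genes higher and 21 lower (0.171% and 0.163% of those tested), and the difference between the responses was tested directly. The response was more positive at 22 than at 6 weeks for 1214 genes (9.45%) and more negative for 1555 (12.1%). Ctsk was 46.6, 17.5 and 22.5 FPKM on WD and 23.97, 30.3 and 31.7 FPKM on NLD at 6 weeks, so the rise at 22 weeks was larger by 3.11 (SE 0.49, adjusted p = 0.00106). Ctsl at 6 weeks was 279, 147 and 159 FPKM on WD and 137, 182 and 181 FPKM on NLD, a difference of responses of 2.39 (adjusted p = 0.00283). Mmp13 at 6 weeks was 0.895, 0.423 and 0.440 FPKM on WD and 0.288, 0.289 and 0.426 FPKM on NLD, a difference of 3.22 (adjusted p = 0.000148). Of the cathepsin list 10 of 16 members had a more positive response at 22 weeks, and of the fibrillar collagen list 10 of 21. General macrophage markers did so in 7 of 21, with a list median of 1.96 at 22 weeks beside 0.69 at 6 weeks, and Cd68 was not among them (difference 1.07, adjusted p = 0.177).

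Mitochondrial and fat genes were compared with 6 weeks in the same way. Of the oxidative phosphorylation list, 62 of 74 had a more negative response at 22 weeks, and the list median was -1.09 at 22 weeks beside 0.64 at 6 weeks. Ucp1 at 6 weeks was 1124, 2726 and 1428 FPKM on WD and 539.8, 417 and 369 FPKM on NLD, and its responses differed by -3.52 (adjusted p = 0.00518). Cebpb was 32.5, 48.3 and 44.2 FPKM on WD and 12.6, 13.2 and 11.8 FPKM on NLD at 6 weeks, and its responses differed by -3.63 (adjusted p = 0.000582). Both were higher on WD in all 3 libraries at 6 weeks and lower on WD at 22 weeks. For Cebpb, absence of overlap at 22 weeks was a condition of the choice. Of the brown adipocyte markers 9 of 14 also had a more negative response at 22 weeks, and their part in this was not tested. Scd3 rose at both times, with 54.2, 201 and 109.6 FPKM on WD and 2.29, 4.38 and 1.29 FPKM on NLD at 6 weeks (4.97, SE 0.45, adjusted p = 2.4e-06). Scd1 is listed at 0 in all 3 of those WD libraries beside 1451 to 4253 FPKM on NLD at 6 weeks, so the values of Scd3 there are uncertain. Without WD replicate 1 of the 22 week group, 426 and 320 genes differed between the times in place of 1214 and 1555.

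In DKO at 22 weeks, WD against NLD gave 108 genes higher and 117 lower (0.841% and 0.911%). The response was more positive in EKO than in DKO for 459 genes (3.57%) and more negative for 105 (0.817%). Of the lysosomal hydrolases 17 of 38 were more positive in EKO and none more negative, and of the cathepsins 9 of 16 were more positive and 1 more negative. Ctsk in DKO was 14.3, 42.7 and 22.4 FPKM on WD and 26.1, 24.9 and 21.4 FPKM on NLD, and its response was larger in EKO by 3.01 (SE 0.49, adjusted p = 0.00295). Col1a1 in DKO was 90.1, 213 and 197 FPKM on WD and 295, 354 and 238 FPKM on NLD, and the difference was 2.57 (adjusted p = 0.00849). In each of these genes the EKO diets were separate and the DKO response did not pass the test. Of general macrophage markers, 2 of 21 had a more positive response in EKO, at medians of 1.96 in EKO and 1.12 in DKO, with Cd84 among them (difference 1.78, adjusted p = 0.0311). Spp1 in DKO was 121, 624 and 774 FPKM on WD and 398, 3.67 and 43.2 FPKM on NLD, so its large rise in EKO could not be separated from that of DKO (difference 1.54, adjusted p = 0.621). Every complete EKO library at 22 weeks has a larger FPKM total than every DKO library. After scaling each library to a common median the counts for the genotypes were 376 and 125, and without WD replicate 1 of EKO they were 178 and 28.

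**Figure D5:**
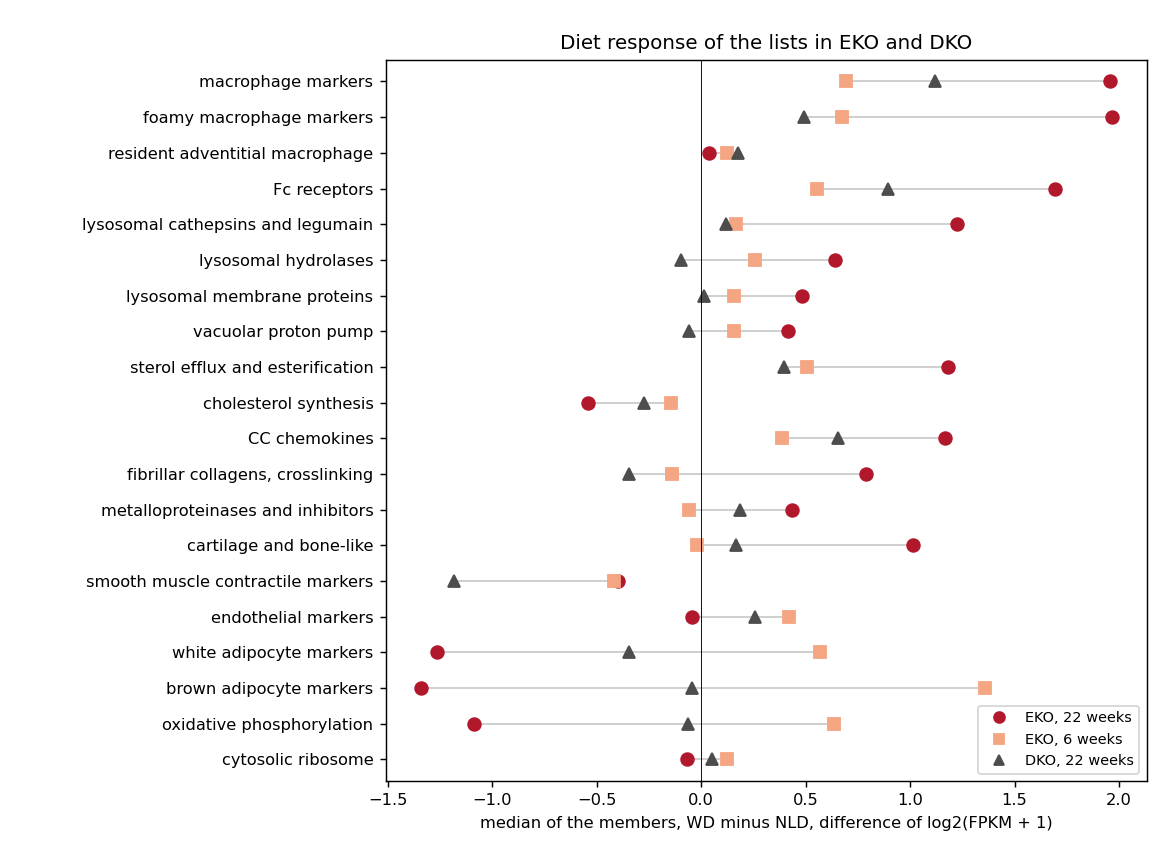
Median of WD minus NLD (x axis, difference of log2(FPKM + 1)) over the tested members of 20 lists, for EKO at 22 weeks (circles), EKO at 6 weeks (squares) and DKO at 22 weeks (triangles). Cathepsin and fibrillar collagen medians are near or below 0 in EKO at 6 weeks and DKO at 22 weeks but 1.23 and 0.79 in EKO at 22 weeks, and the fat and mitochondrial medians are positive in EKO at 6 weeks and negative in EKO at 22 weeks.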

How the data were processed

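Aortic RNA of 25 mice was sequenced as unpaired 50 nt reads, and the authors deposited one table of FPKM values for 23284 genes. Per the submitters' processing notes the build was mm10 and the tools were SAMtools 0.1.19, TopHat 1.3.2, Cuffdiff and Bowtie 0.12.8, and the methods name Cufflinks for the FPKM. The gene models, the Cufflinks version and the flowcell of each library are not given in the sources used here. FPKM keep no read counts, so a count test was not used and depth is known only as the ratios in the text.

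From the table, zeros of EKO WD 22 weeks replicate 2 were set to missing and genes averaging 1 FPKM or more across the series were kept (12849 genes; 3048 are at 0 in every library). The values log2(FPKM + 1) of all 25 libraries were fitted with 1 term per group of genotype, diet and weeks in limma 3.58.1 (R 4.3.3), with a trended and robust prior, two-sided tests and Benjamini-Hochberg adjustment over all genes tested within each contrast. Fitting all groups gives 1 estimate of the spread for all of them. Differences of diet responses were contrasts of the same fit. Adjusted p-values in the text come from this limma fit. Tables and figures were made with Python 3.11.15, pandas 2.3.3, NumPy 2.4.6 and Matplotlib 3.10.9. The fit was tested on simulated data. Gene positions for the order along the genome were taken from RefSeq and found for 20723 genes by symbol and 2346 by synonym, and 215 were not placed.

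The libraries were grouped by their labels. Named genes were, without overlap between diets, the 12 largest called changes in each direction that averaged 5 FPKM or more in the higher group and had a symbol that is not an unnamed or small RNA model, the anchors of each gene list, the 4 members of each list with the smallest p, the 5 largest differences in each contrast of responses, and genes that check labels. Others are marked where they appear, and a few genes that the rule selects are not reported here. The comparison and the gene lists, which were written by hand, were chosen with earlier results of these data known. Alternatives covered the zeros of the partial library, the pseudocount (0.1 and 5), the filter, a rescaling by median ratios, the 6 libraries alone, the prior, a replicate block, each library left out, and stricter thresholds. Xist class as a term, genes with all 6 values and a table without small RNAs were added after seeing the data.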

Additional observations from a re-analysis of the deposited data

Results flagged for a closer look

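Tests of the difference between diet responses picked out 28 values over 18 named genes. Each value below is a difference of log2(FPKM + 1) responses, WD minus NLD, either in EKO at 22 minus 6 weeks or at 22 weeks in EKO minus DKO, with an adjusted p under 0.05 in limma.

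Protease and matrix genes had the more positive response in EKO at 22 weeks. Against 6 weeks the difference was 3.11 for Ctsk, 2.39 for Ctsl, 3.22 for Mmp13, 1.80 for Col1a1, 2.79 for Lum, 3.06 for Thbs1 and 2.86 for Grem1. Against DKO it was 3.01 for Ctsk, 2.56 for Ctsl, 2.43 for Mmp13, 2.57 for Col1a1, 2.14 for Lum and 1.59 for Grem1. Grem1, an antagonist of bone morphogenetic proteins, was 14.6 and 6.16 FPKM on WD and 0.362, 0.357 and 0.907 FPKM on NLD in EKO at 22 weeks, and in DKO it was 2.73, 1.71 and 4.19 FPKM on WD and 0.513, 0.454 and 0.925 FPKM on NLD. It was higher on WD in all libraries of both genotypes at 22 weeks, but in EKO absence of overlap was a condition of the choice.

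Igfbp2, an insulin-like growth factor binding protein, differed by 2.87 between EKO and DKO, with 70.8, 30.9 and 71.4 FPKM on WD and 13.1, 13.3 and 29.7 FPKM on NLD in EKO, and 1.504, 6.57 and 6.14 FPKM on WD and 9.89, 16.5 and 9.51 FPKM on NLD in DKO. The directions were opposite. The diets did not overlap in DKO, and in EKO absence of overlap was a condition of the choice. In EKO the call was lost without WD replicate 1, WD replicate 3, NLD replicate 1 or NLD replicate 2 (adjusted p from 0.108 to 0.19 in limma). The DKO response of Igfbp2 was not called (adjusted p = 0.181 in limma). The difference of Scd3 between EKO and DKO was 3.38, with 7.43, 1.52 and 4.25 FPKM on WD and 3.29, 2.36 and 3.38 FPKM on NLD in DKO.

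Other genes had the more negative response in EKO at 22 weeks. Against 6 weeks the difference was -3.63 for Cebpb, -3.52 for Ucp1, -3.32 for Tuba8, -3.21 for Slc25a42, -3.18 for Cox8b, -2.83 for Cib2, -2.06 for Timp4 and -1.67 for Prodh. Against DKO it was -2.21 for Cebpb, -2.16 for Cib2, -2.61 for Timp4, -2.09 for Prodh and -3.10 for the alpha-globin Hba-a2, which shares reads with its near-identical copy. Timp4 was 43.4, 39.0 and 24.1 FPKM on WD and 21.0, 19.1 and 14.4 FPKM on NLD in DKO, so it lay higher on WD there and lower on WD in EKO. The DKO response of Timp4 was not called (adjusted p = 0.135 in limma). The summed brown and white adipocyte markers of EKO at 22 weeks were lower on WD too, and their part in these values was not tested.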

How the results depend on the processing

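Most results kept their direction and their side of the threshold. Over 140 named genes and all alternatives, 2426 of 2674 values did so, 210 values in 75 genes kept the direction but missed the threshold, 10 in 5 genes newly passed it and 28 reversed. Without WD replicate 1 of EKO at 22 weeks, 41 of 123 calls among named genes were lost, against 10 to 19 without the other complete libraries and 0 without the partial one. The partial library has a value for 35 of the 140 named genes, so leaving it out could hardly change the others.

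All 28 reversals came from keeping the zeros of the partial library as deposited, which puts a 0 into the WD mean. The log2 change was then -0.35 for Tyrobp, -0.82 for Csf1r, -0.93 for Folr2, -0.46 for Mrc1, -2.12 for Ctsd, -0.24 for Gusb, -0.75 for Lipa, -0.58 for Npc1, -0.62 for Igf2r, -2.36 for Lamp1, -1.02 for Atp6v1a, -0.57 for Tcirg1, -0.089 for Mitf and -0.44 for Abca1. It was -0.061 for Ccr2, -0.12 for Casp1, -1.16 for C1qa, -2.32 for Cd74, -1.67 for H2-Aa, -0.13 for Vcam1, -0.90 for Icam1, -0.25 for Lox, -0.40 for Mmp3, -1.91 for Eln, -0.68 for Fbn1, -0.43 for Hmox1, -2.58 for Ftl1 and -0.75 for Tgfb1.

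Counts are given as higher and lower for the diets in EKO at 22 weeks (1331 and 1175), then for 22 against 6 weeks (1214 and 1555) and for EKO against DKO (459 and 105). With the deposited zeros they were 303 and 458, 68 and 35, and 19 and 6. With an adjusted p under 0.01 they were 806 and 306, 378 and 416, and 122 and 19, and with at least a 2-fold change 543 and 262, 432 and 818, and 254 and 65. The diet counts were 725 and 265 with the 6 libraries alone and 486 and 342 over genes with all 6 values, which are fewer. The count more positive at 22 than at 6 weeks was 807 over genes of at least 5 FPKM. Leaving out 1 library gave 766 to 1321 and 155 to 1358 for the diets, 426 to 1413 and 320 to 1842 for the weeks, and 178 to 877 and 28 to 200 for the genotypes.

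Replicate numbers do not pair the mice. Deviations of same-numbered WD and NLD libraries correlated at 0.108, -0.156 and 0.201 over 4022 genes. A fit with the replicate block gave 1459 and 1831 for the diets, 1197 and 1560 for the weeks, and 691 and 263 for the genotypes, and lost no call among the named genes. Genes missing from the partial library rest on 2 WD values, and without read counts no limit from depth could be given for single genes.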
